A study of Homo sapiens with 6 samples.

Results

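The HOX genes are the homeobox genes of the 4 human HOX clusters, and the long noncoding RNAs (lncRNAs) transcribed among them are read from the same stretches of chromosome. The members described here are all rows of the deposited gene table whose symbol is a HOXA, HOXB, HOXC or HOXD gene with its number, a HOX antisense RNA, or HOTAIR, HOTAIRM1 or HOTTIP. The rule gave 54 of the 30270 genes in the table. They are 38 protein-coding genes and 16 lncRNAs, of which 17 lie in the HOXA cluster, 13 in HOXB, 14 in HOXC and 10 in HOXD. HOXB1 has no row in the table analysed, so its level was not analysed here.

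HOX proteins are transcription factors that give cells their position along the head-to-tail axis of the embryo. Within a cluster the genes lie in the order of the body regions they mark. Low-numbered genes act towards the head and respond early to retinoic acid, and high-numbered genes act towards the trunk, limbs and urogenital region. Genes with the same number in different clusters are paralogs that came from duplication of an ancestral cluster. Polycomb complexes keep silent HOX genes closed and Trithorax and MLL complexes keep active ones open, so that adult and cultured cells retain a HOX pattern from the tissue of their origin. The posterior genes of the A, C and D clusters take part in kidney and urogenital development. Several cluster lncRNAs have been linked to this control, among them HOTAIR, which lies in HOXC and has been tied to Polycomb, and HOTTIP, which lies at the high-numbered end of HOXA and has been tied to MLL complexes.

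The cells were HEK 293T, an immortalised line from human embryonic kidney, without any treatment. The series has 3 RNA-seq libraries from wild-type cells (WT) and 3 from cells in which both terminal uridylyltransferases TUT4 and TUT7 (TENT3A and TENT3B) were knocked out (ΔTUT4/7). These enzymes add uridines to RNA ends, and the comparison asks which transcripts differ in abundance when both are lost. The ΔTUT4/7 cells came from an earlier study, and the sources used here do not say how many clones they represent. With a single line per genotype, the deletion and any other difference between these lines cannot be told apart. The labels call the 3 libraries biological replicates but do not say that they came from separate cultures or clones, so the p-values measure the spread between these libraries.

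Total assigned reads ran from 18757228 to 33148937 per library, and the HOX members took 0.0911% to 0.102% of them in WT and 0.113% to 0.114% in ΔTUT4/7. The knockout label was checked first. TUT7 fell from 62.6 ± 2.17 to 26.3 ± 1.04 CPM (reads per 1000000 of the TMM-scaled library total described below, as mean ± SD, n = 3). TUT4 instead rose from 211 ± 5.08 to 906 ± 21.4 CPM, against its label. Where the edit lies in each gene is not given in the sources used here, and a count over a whole gene does not test it. Every direction below is therefore that of the libraries labelled ΔTUT4/7 relative to those labelled WT. Of 12 HEK 293T markers (kidney, epithelial and neural genes), 11 were in the table, 11 reached 1 CPM in WT and 9 in the libraries labelled ΔTUT4/7. Their summed level was 1374 to 1627 CPM in WT and 310 to 317 CPM in ΔTUT4/7, with NEFM at 1 count in ΔTUT4/7 and EPCAM at 0. Of 4 blood markers LYZ alone was in the table, at most at 0.305 CPM in any library. Of 5 fibroblast markers 2 were in the table, with sums of 20.1 to 22.9 CPM in WT and 7.94 to 9.24 CPM in ΔTUT4/7. Whether any of these has a part in the HOX differences was not tested. In bulk samples such as these, fewer cells expressing a gene and less of its RNA per cell cannot be told apart.

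The clusters also hold microRNA genes. HOX mRNAs are known targets of the microRNAs encoded beside them, and the TUT enzymes are known to act on let-7 precursors. MIR196A1 lies at chr17:48632490-48632559 (hg38, minus strand), inside both HOXB7 and HOXB-AS4, and MIR196A2 at chr12:53991738-53991847 (plus strand), inside HOXC6. MIR196B lies at chr7:27169480-27169563 (minus strand), inside HOXA9 and HOXA10-AS, and MIR10A at chr17:48579838-48579947 (minus strand), inside HOXB3 and HOXB-AS3. The mature forms from RefSeq are shown 5′ to 3′ with the seed, bases 2 to 8, in capitals, because the seed is what the site counts further on use. The miR-196 sequences share 1 seed, and the let-7 and miR-10a seeds are different. None of these microRNAs has a row in the gene table, so they were not measured here.
hsa-miR-196a-5p: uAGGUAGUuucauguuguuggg
hsa-miR-196b-5p: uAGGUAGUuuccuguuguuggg
hsa-miR-10a-5p: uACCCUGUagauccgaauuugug
hsa-let-7a-5p: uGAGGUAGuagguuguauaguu

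All 54 members passed the count filter, which kept the 23952 genes with more than 12 counts in at least 1 library. Of these members 25 were higher, 13 were lower and 16 were not called in ΔTUT4/7 (edgeR quasi-likelihood test, Benjamini-Hochberg adjusted p under 0.05 over all tested genes; every adjusted p below is from this fit). Differential expression was widespread in these libraries, with 57.7% of all tested genes called, 28.6% higher and 29.0% lower. Among the members 70.4% were called, 46.3% higher and 24.1% lower. At 2-fold or more, 3 members were higher, namely HOXA10, HOXB5 and HOXB8, and 7 were lower, namely HOTTIP, HOXB-AS4, HOXC11, HOXC12, HOTAIR, HOXD1 and HOXD3. Over all tested genes 18.3% passed this limit, 5.90% higher and 12.4% lower. The libraries of the groups did not overlap for 27 members that were higher and 12 that were lower in ΔTUT4/7, where 62.7% of all tested genes had no overlap, 30.9% higher and 31.8% lower. The median log2 fold change over the members was 0.20, against −0.02 over all tested genes.

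The 4 clusters did not move alike. HOXA and HOXB were mostly higher in ΔTUT4/7, HOXD was mostly lower, and HOXC held higher genes from HOXC6 to HOXC10 and lower ones from HOXC11 to HOXC12. In HOXA 11 members were higher, 1 was lower and 5 were not called, with a median log2 fold change of 0.47. In HOXB 7 were higher, 2 lower and 4 not called, with a median of 0.39. In HOXC 6 were higher, 4 lower and 4 not called, and the median of 0.01 turned to −0.10 when counts were scaled by library size alone and to −0.09 under upper-quartile scaling. In HOXD 1 was higher, 6 were lower and 3 were not called, with a median of −0.52. Those scalings moved the median of all genes by −0.11 and −0.10, so the HOXC value sits no further from the other genes under them. The HOXA and HOXB medians stayed above 0 and the HOXD median below 0 under each scaling.

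Genes in a cluster overlap each other and the authors' model had to divide shared reads among them. Of the 54 members, 48 overlap another member and 27 overlap a member on the same strand. The strand setting of the counting is not given in the sources used here, so sense and antisense reads of an overlapping pair cannot be told apart. The sum over a cluster does not depend on how its members divide their reads among themselves. It can still depend on reads shared with rows that are not members, such as HAGLR over HOXD3 and AC103702.1 inside HOXB3. Those rows are outside the sums, and the size of that effect was not tested. The HOXA sum was 373, 343 and 364 CPM in the WT libraries and 536, 548 and 547 CPM in ΔTUT4/7, a ratio of means of 1.51. For HOXB it was 219, 192 and 211 CPM against 314, 313 and 318 CPM, a ratio of 1.52. In both clusters each ΔTUT4/7 library lay above each WT library, by far more than the spread within a group. The HOXC sum was 134, 121 and 138 CPM in WT and 130, 130 and 129 CPM in ΔTUT4/7, and here the groups overlapped (ratio 0.988). The HOXD sum was 248, 214 and 236 CPM in WT and 196, 199 and 194 CPM in ΔTUT4/7, with all ΔTUT4/7 libraries below all WT libraries (ratio 0.844). As a share of all HOX reads, HOXA went from 38.7% to 45.9% and HOXB from 22.3% to 26.6%, while HOXC went from 14.1% to 10.9% and HOXD from 25.0% to 16.6%. The summed level of all members was 931 ± 53.8 CPM in WT and 1185 ± 6.58 CPM in ΔTUT4/7 (mean ± SD, n = 3).

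**Figure D1:**
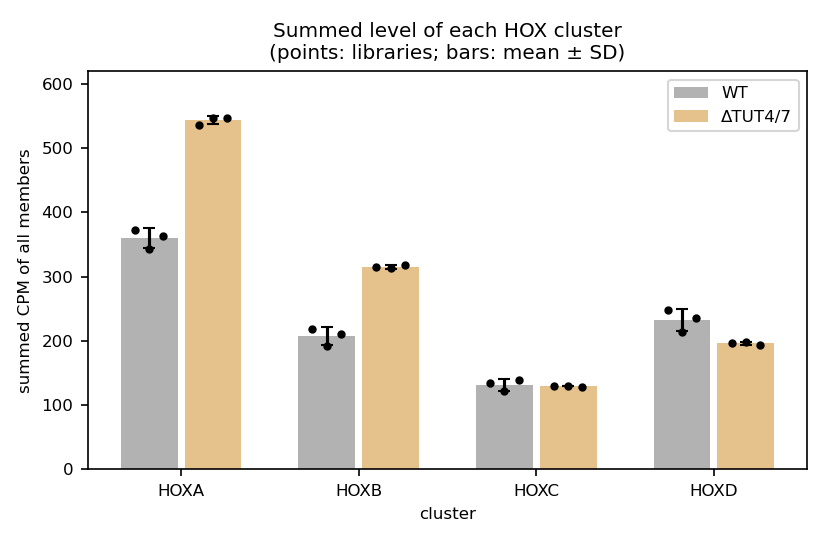
Summed level of each HOX cluster in CPM (y axis) for WT (grey) and ΔTUT4/7 (orange); points are the 3 libraries per group, bars the mean and error bars the SD. The ΔTUT4/7 libraries lie above the WT libraries for HOXA and HOXB, overlap them for HOXC and lie below them for HOXD.

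The HOXA cluster lies on chromosome 7 in hg38, with its coding genes on the minus strand. Of its 11 coding genes 8 were higher and 3 were not called. HOXA10, which patterns the uterus and kidney region and is expressed in blood progenitors, changed most. It lies at chr7:27170592-27180261 and stood at 49.0, 43.9 and 47.0 CPM in WT and at 105, 108 and 111 CPM in ΔTUT4/7. The groups were widely separated, and HOXA10 was 2.32-fold higher (log2 fold change 1.22 ± 0.05 SE, adjusted p = 4.76e-14). HOXA5, a gene of the lung and cervical skeleton at chr7:27141052-27143681, stood at 57.6, 59.5 and 58.1 CPM in WT and 98.9, 99.6 and 103 CPM in ΔTUT4/7. Its rise was smaller but as clear of the spread (0.78 ± 0.05, adjusted p = 1.46e-11). HOXA9, known for its role in blood progenitors and leukaemia, lies at chr7:27162438-27175180 and had 51.4, 49.7 and 54.5 CPM in WT against 68.3, 75.1 and 72.2 CPM in ΔTUT4/7. Its groups did not overlap either (0.47 ± 0.06, adjusted p = 4.02e-07). HOXA9 and HOXA10 overlap on the same strand, so part of their reads was assigned by the model.

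Other higher HOXA coding genes were HOXA3 (0.50 ± 0.08), HOXA6 (0.62 ± 0.10), HOXA11 (0.80 ± 0.08) and HOXA4 (0.82 ± 0.17). HOXA11 takes part in growth of the ureteric bud of the kidney. HOXA2, a gene of the hindbrain and second branchial arch, had a log2 fold change of 0.20 ± 0.14 (adjusted p = 0.245) with groups that did not overlap. HOXA7 stood at 0.30 ± 0.14 (adjusted p = 0.0681). HOXA13, the most posterior gene, required for limb ends and the urogenital tract, had 50.4, 46.0 and 45.4 CPM in WT and 43.8, 48.8 and 47.0 CPM in ΔTUT4/7. The difference of −0.02 ± 0.06 lay within the spread of both groups, beside a HOXA11 gene that rose.

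Of the 6 HOXA lncRNAs 3 were higher, 1 was lower and 2 were not called. HOTAIRM1, an RNA of the low-numbered end (chr7:27095647-27100265, plus strand) that is induced in myeloid differentiation, had 21.1, 19.9 and 19.4 CPM in WT and 22.9, 25.8 and 24.9 CPM in ΔTUT4/7. Its groups did not overlap, but the rise was small (0.28 ± 0.08, adjusted p = 0.00394) and was lost under library-size scaling (adjusted p = 0.0777) and upper-quartile scaling (adjusted p = 0.0519). HOXA-AS3, which runs across HOXA3 to HOXA7, rose by 0.50 ± 0.07 on the log2 scale, and HOXA11-AS rose by 0.80 ± 0.17, the same size as HOXA11 on the opposite strand. HOXA-AS2 (0.08 ± 0.08, adjusted p = 0.423) and HOXA10-AS (0.20 ± 0.19, adjusted p = 0.373) were not called, though both overlap coding genes that were. HOTTIP, at chr7:27198575-27207259 on the plus strand and overlapping HOXA13, was the single lower member of the cluster. It had 1.63, 0.885 and 1.21 CPM in WT and 0.749, 0.619 and 0.358 CPM in ΔTUT4/7. The groups did not overlap, and the log2 fold change was −1.04 ± 0.34 (adjusted p = 0.0129). The call on HOTTIP was lost without WT replicate 1 (−0.83, adjusted p = 0.0705), without ΔTUT4/7 replicate 3 (−0.81, adjusted p = 0.0603) and in DESeq2 (adjusted p = 0.051).

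The HOXB cluster, taken from HOXB2 to HOXB13, spans chr17:48540894-48728750, with HOXB13 well apart from the rest. Of its 9 coding genes 6 were higher, 1 was lower and 2 were not called. The rise was largest in the central genes and in HOXB9. HOXB5, a gene of lung, gut nerve and vessel development at chr17:48591257-48593961, had 12.8, 10.5 and 12.2 CPM in WT and 22.9, 22.6 and 26.2 CPM in ΔTUT4/7. It was 2.02-fold higher with no overlap (1.01 ± 0.10, adjusted p = 7.6e-09). HOXB8, which acts in myeloid progenitors and the spinal cord, lies at chr17:48611377-48615292 and had 7.79, 5.77 and 7.70 CPM in WT and 14.0, 14.8 and 14.4 CPM in ΔTUT4/7. Its libraries were likewise apart, with a fold of 2.04 (1.03 ± 0.12, adjusted p = 1.44e-07). HOXB9, a thoracic patterning gene at chr17:48621156-48626358, had 66.0, 60.9 and 66.7 CPM in WT and 128, 126 and 131 CPM in ΔTUT4/7. At 1.99-fold it lay just under the 2-fold limit that HOXB5 and HOXB8 just passed (0.99 ± 0.05, adjusted p = 4.19e-13), so the count of 3 members above 2-fold is sensitive to small shifts. It was 1 under library-size scaling, upper-quartile scaling and a filter on a mean count of 50, and without WT replicate 2, and HOXA10 was the member left in each of these.

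HOXB6, a central gene at chr17:48595751-48604992, had 32.3, 28.9 and 31.5 CPM in WT and 50.6, 52.4 and 52.7 CPM in ΔTUT4/7, a clear separation (0.75 ± 0.06, adjusted p = 1.2e-09). HOXB4, used to expand blood stem cells, rose by 0.74 ± 0.12 and HOXB2, a hindbrain gene, by 0.39 ± 0.11 on the log2 scale. HOXB3, whose annotated span on the same strand takes in HOXB4, HOXB5 and most of HOXB6 (chr17:48548870-48604912), had 40.0, 31.7 and 36.7 CPM in WT and 35.4, 36.0 and 35.5 CPM in ΔTUT4/7. All 3 ΔTUT4/7 values lay inside the WT range (−0.02 ± 0.07, adjusted p = 0.858). HOXB7 had 11.5, 11.8 and 11.5 CPM against 14.5, 12.5 and 12.4 CPM, groups that did not overlap but a difference that was not called (0.19 ± 0.10, adjusted p = 0.112). HOXB13, a prostate and hindgut gene at the far end, went the other way, from 11.8, 12.2 and 12.7 CPM to 10.1, 9.23 and 9.30 CPM (−0.35 ± 0.10, adjusted p = 0.00529).

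HOXB-AS4 was nearly gone from ΔTUT4/7. This lncRNA lies at chr17:48628675-48634932 on the plus strand, between HOXB9 and HOXB13, where the annotated span of HOXB7 crosses it on the minus strand. It had 6.11, 4.85 and 5.41 CPM in WT and 0, 0.103 and 0 CPM in ΔTUT4/7, which is 412 counts against 2. At equal depth the ratio of WT to ΔTUT4/7 counts was 192, with a 95% interval of 52.7 to 1588 that covers counting error only (adjusted p = 4.2e-12). The rows next to it behaved alike, and they were looked at after the values were seen. The lncRNA AC103702.2, at chr17:48635923-48647023, had 179, 219 and 236 counts in WT and 0, 0 and 1 in ΔTUT4/7. LINC02086, at chr17:48646923-48707346, had 50, 74 and 57 counts in WT and 2, 3 and 2 in ΔTUT4/7 (adjusted p = 2.22e-09). The pseudogene RPL9P28 inside it had 19 counts in WT and 0 in ΔTUT4/7, too few in any library to pass the count filter, so it was not tested. PRAC2, next to HOXB13, was lower by a smaller amount (−1.40 ± 0.24, adjusted p = 4.02e-05). Thus the lncRNA rows between HOXB9 and HOXB13 were close to 0 while HOXB9 on one side rose and HOXB13 on the other fell by 0.35 on the log2 scale.

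Of the other HOXB lncRNAs, HOXB-AS3, which overlaps HOXB3 to HOXB6, rose by 0.48 ± 0.11 (adjusted p = 0.000813). HOXB-AS1 (−0.44 ± 0.36, adjusted p = 0.323) and HOXB-AS2 (0.13 ± 0.26, adjusted p = 0.696) had under 150 counts per group and were not called. AC103702.1, a lncRNA that holds MIR10A and is not a HOX symbol, rose by 0.60 ± 0.11 (adjusted p = 9.75e-05).

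The HOXC cluster spans chr12:53938831-54056030 on the plus strand, from HOXC13 to HOXC4. It showed a break between HOXC10 and HOXC11. Before it, HOXC6, HOXC8, HOXC9 and HOXC10 were higher. HOXC6, a central gene at chr12:53990624-54030823, had 20.0, 18.9 and 18.7 CPM in WT and 24.2, 23.4 and 24.6 CPM in ΔTUT4/7. HOXC10, a lumbar gene at chr12:53985065-53990279, had 14.0, 12.2 and 15.3 CPM in WT and 20.4, 20.3 and 18.4 CPM in ΔTUT4/7. Neither gene's groups overlapped, with log2 fold changes of 0.33 ± 0.08 (adjusted p = 0.000814) and 0.51 ± 0.10 (adjusted p = 0.000102). HOXC9 rose by 0.43 ± 0.10. HOXC8 stood at 0.30 ± 0.11 (adjusted p = 0.0221), a call lost in 6 of the 15 alternative settings. HOXC4, at chr12:54016931-54056030, had 21.3, 19.8 and 26.9 CPM in WT and 24.6, 26.1 and 23.5 CPM in ΔTUT4/7. Its groups overlapped and it was not called (0.12 ± 0.10, adjusted p = 0.322), but without WT replicate 3, the highest of the 6 values, it was (0.27, adjusted p = 0.0131). HOXC5, with 152 and 107 counts per group, was not called (−0.38 ± 0.27, adjusted p = 0.238).

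Beyond HOXC10, 3 neighbours were at least 2-fold lower. HOXC11, a lumbosacral and hindlimb gene at chr12:53973126-53977643, had 14.9, 15.3 and 17.5 CPM in WT and 8.02, 7.89 and 7.51 CPM in ΔTUT4/7. The groups were apart, with a log2 fold change of −1.03 ± 0.10 (adjusted p = 2.27e-08). HOTAIR, which overlaps its start on the minus strand (chr12:53962308-53974956), had 12.7, 11.1 and 10.8 CPM in WT and 4.31, 2.73 and 2.71 CPM in ΔTUT4/7. It was 3.43-fold lower, with no overlap (−1.78 ± 0.16, adjusted p = 6.89e-09). HOXC12, the next gene along at chr12:53954903-53958956, had 5.45, 4.65 and 6.20 CPM in WT and 0.0312, 0 and 0 CPM in ΔTUT4/7. That is 418 counts against 1, a ratio at equal depth of 389 with a 95% counting interval of 69.4 to 15402 (adjusted p = 6.82e-13). HOXC13, a hair and nail gene at the end of the cluster, did not follow. It ranged from 8.20 to 8.67 CPM in WT and from 7.80 to 8.22 CPM in ΔTUT4/7 (−0.09 ± 0.11, adjusted p = 0.494). The difference was thus largest at HOXC12, while HOXC10 on one side of the stretch rose and HOXC13 on the other was not called.

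The remaining HOXC lncRNAs had few counts, apart from HOXC-AS2 with 426 in WT and 522 in ΔTUT4/7. HOXC13-AS was lower (−0.73 ± 0.26, adjusted p = 0.0215), and HOXC-AS1 (0.62 ± 0.25, adjusted p = 0.0377) and HOXC-AS2 (0.40 ± 0.13, adjusted p = 0.0125) were higher, all with groups that did not overlap. Each of these calls was lost in 3 or more of the alternative settings, among them for HOXC13-AS and HOXC-AS1 the test by DESeq2 (adjusted p = 0.103 and 0.109). HOXC-AS3, which overlaps HOXC10, was not called (−0.22 ± 0.31, adjusted p = 0.566).

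**Figure D2:**
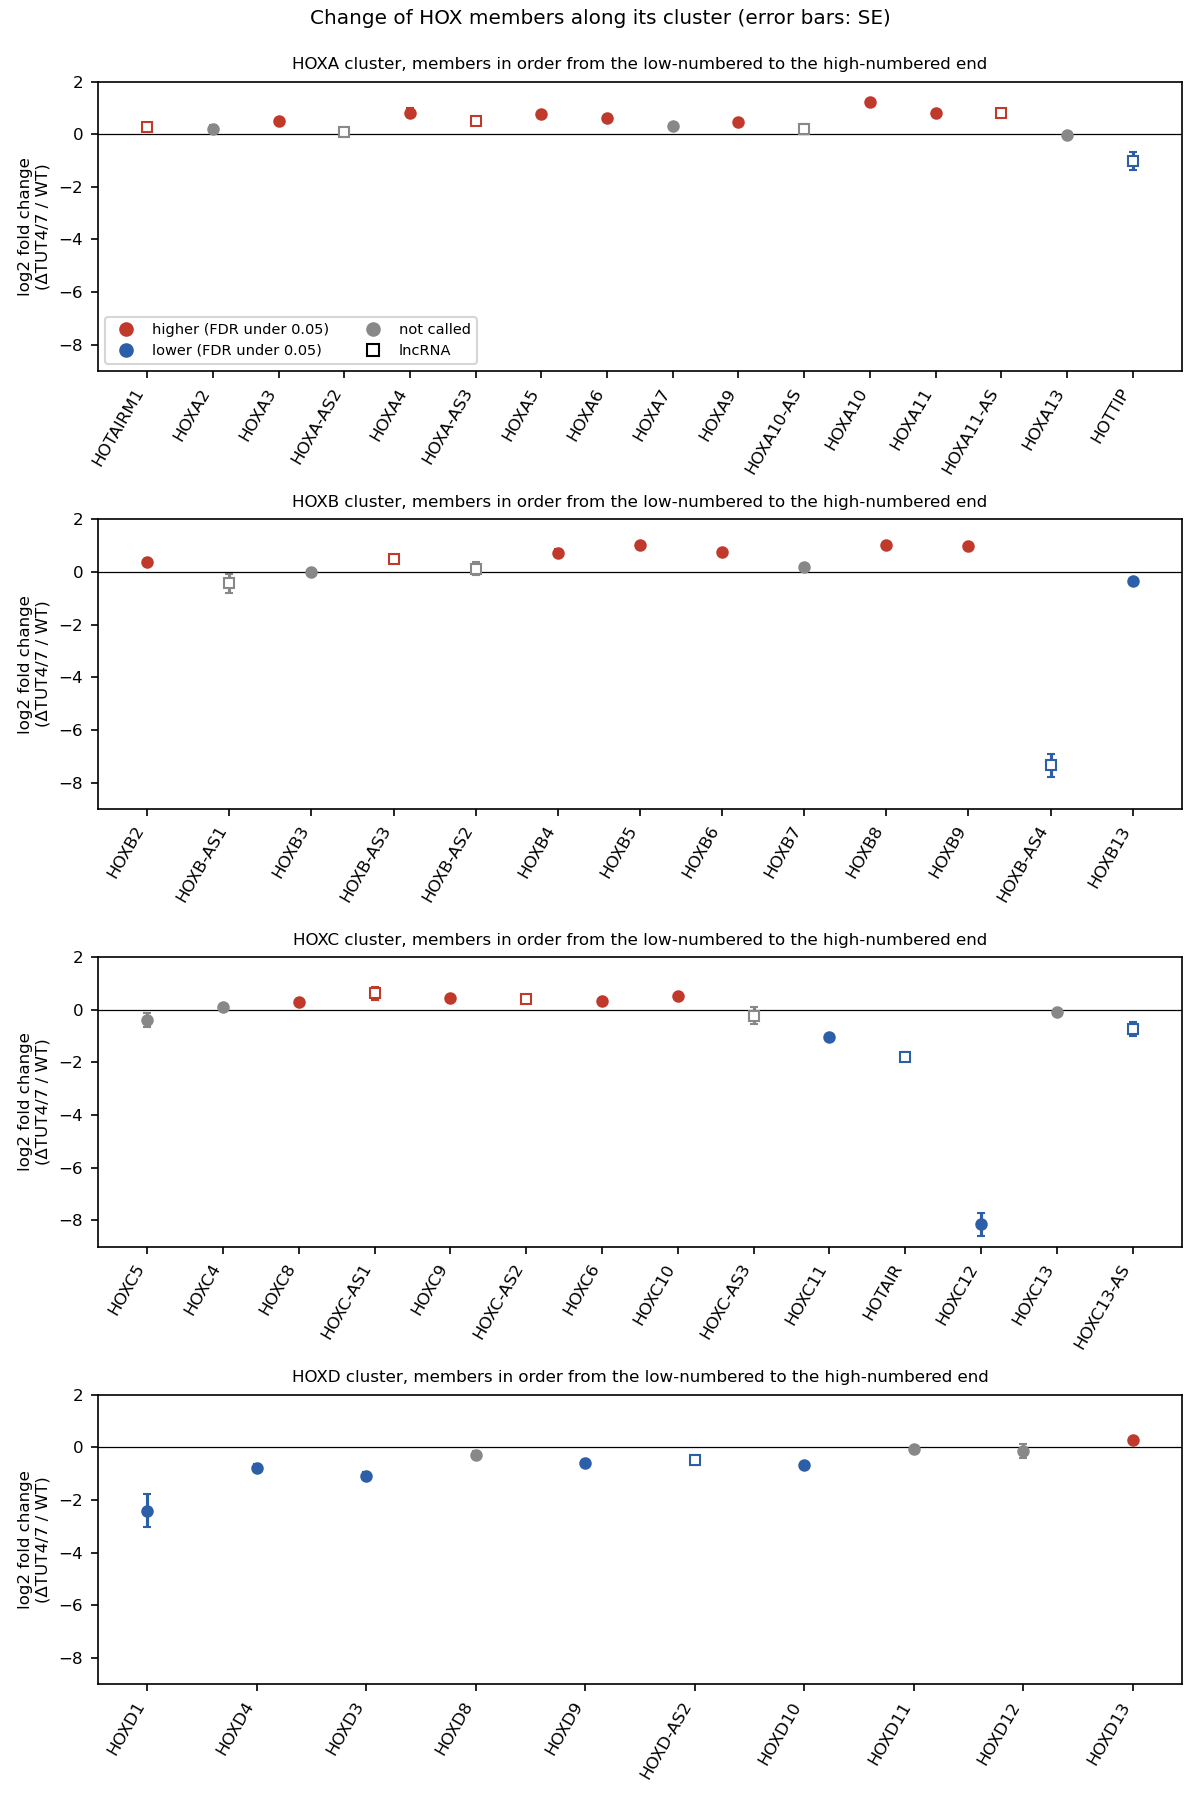
Log2 fold change of ΔTUT4/7 over WT (y axis) for the members, in 1 panel per cluster, placed in chromosomal order from the low-numbered to the high-numbered end; bars are the SE, red is higher, blue lower and grey not called, and squares are lncRNAs. HOXC12 and HOXB-AS4 fall far below the others, and their fitted values depend on the prior count because ΔTUT4/7 held 1 and 2 counts.

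The HOXD cluster spans chr2:176092721-176190907 on the plus strand, from HOXD13 to HOXD1, and was the cluster in which lower calls prevailed. Of its 9 coding genes 5 were lower, 1 was higher and 3 were not called. HOXD10, a posterior gene of the limb and spinal cord at chr2:176108790-176119937, had 94.0, 79.8 and 88.9 CPM in WT and 56.4, 54.4 and 56.8 CPM in ΔTUT4/7. The groups were clearly apart (−0.65 ± 0.06, adjusted p = 5.26e-09). HOXD3, an anterior gene at chr2:176136612-176173102, had 11.0, 8.38 and 11.2 CPM in WT and 5.21, 4.43 and 4.70 CPM in ΔTUT4/7. It was 2.12-fold lower without overlap (−1.08 ± 0.14, adjusted p = 6.26e-07). HOXD4 fell by 0.77 on the log2 scale (SE 0.13, adjusted p = 4.32e-05), and HOXD9 by 0.57 (SE 0.09, adjusted p = 1.29e-05). The whole span of HOXD4 lies inside that of HOXD3 on the same strand, so the model had to divide reads between these genes. HOXD1, at the low-numbered end (chr2:176188668-176190907), was scarce, with 41 counts in WT and 7 in ΔTUT4/7. The ratio at equal depth was 5.45, with a 95% counting interval of 2.42 to 14.4 (adjusted p = 0.00247).

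HOXD13, which shapes the digits and genitalia, was the exception at the other end of the cluster. It lies at chr2:176092721-176095944 and had 68.7, 63.5 and 70.8 CPM in WT and 82.3, 87.0 and 80.5 CPM in ΔTUT4/7. The groups did not overlap, and the rise was 0.30 ± 0.05 on the log2 scale (adjusted p = 7.6e-05). HOXD11, at chr2:176104216-176109754 and a partner of HOXA11 in kidney development, had 25.2, 20.1 and 25.1 CPM in WT and 22.0, 22.7 and 22.4 CPM in ΔTUT4/7. Its ΔTUT4/7 values lay within the WT range (−0.07 ± 0.09, adjusted p = 0.523). HOXD12 (−0.13 ± 0.27, adjusted p = 0.694) was scarce and HOXD8 was not called (−0.28 ± 0.13, adjusted p = 0.0797), although 4 of the 15 alternative settings called HOXD8 lower. HOXD-AS2, an antisense RNA that overlaps HOXD3, HOXD8 and HOXD9, was called lower (−0.47 ± 0.19, adjusted p = 0.0437) with overlapping groups, and that call was lost in 7 of the settings. The fold change did not run evenly along HOXD, with lower calls at HOXD1, HOXD3 and HOXD4 and again at HOXD9 and HOXD10. HAGLR is a lncRNA whose span (chr2:176164051-176188958) overlaps part of HOXD3 and the start of HOXD1, and it was named after its values were seen. It went from 20.9 ± 1.35 to 6.17 ± 1.08 CPM (−1.74 ± 0.12, adjusted p = 3.1e-11). Reads that it may share with HOXD3 and HOXD1 cannot be told apart here.

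The promoters of 3 members past the 2-fold limit are shown as sequence context. They are HOXA10, the most raised, HOXB-AS4, nearly absent from ΔTUT4/7, and HOXD3, 2.12-fold lower in the cluster with mostly lower calls. HOXD3 was not the lowest of its cluster, since the scarce HOXD1 fell further. RefSeq gave a promoter window, 250 bases before to 50 after a transcript start, for 28 members. The sequences are 5′ to 3′ on the gene's own strand in GRCh38.p14, with each CG dinucleotide in capitals. HOXA10 is at chr7:27179812-27180111 (minus strand), HOXB-AS4 at chr17:48628448-48628747 (plus strand) and HOXD3 at chr2:176157057-176157356 (plus strand), the last at a RefSeq start inside the longer span that the gene table gives.
HOXA10: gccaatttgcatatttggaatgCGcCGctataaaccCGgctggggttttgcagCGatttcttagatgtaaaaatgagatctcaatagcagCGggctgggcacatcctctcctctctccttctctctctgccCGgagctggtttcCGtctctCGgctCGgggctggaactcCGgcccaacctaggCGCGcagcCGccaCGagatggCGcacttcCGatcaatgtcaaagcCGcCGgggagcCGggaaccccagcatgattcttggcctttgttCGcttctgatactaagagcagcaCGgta
HOXB-AS4: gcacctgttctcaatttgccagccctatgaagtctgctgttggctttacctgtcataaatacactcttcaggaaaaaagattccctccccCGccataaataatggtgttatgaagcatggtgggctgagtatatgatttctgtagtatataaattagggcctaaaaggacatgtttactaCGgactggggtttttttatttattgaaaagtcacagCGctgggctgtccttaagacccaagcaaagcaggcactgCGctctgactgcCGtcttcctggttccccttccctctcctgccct
HOXD3: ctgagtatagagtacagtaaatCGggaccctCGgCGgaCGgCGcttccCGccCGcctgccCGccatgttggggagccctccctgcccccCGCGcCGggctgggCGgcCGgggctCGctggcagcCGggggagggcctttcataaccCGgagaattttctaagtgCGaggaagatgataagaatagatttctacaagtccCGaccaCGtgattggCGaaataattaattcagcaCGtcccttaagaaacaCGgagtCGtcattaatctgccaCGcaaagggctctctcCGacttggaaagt

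HOXA10 and HOXB-AS4 each have a further window in the RefSeq table, and the window shown is the one whose start is nearest the gene's start in the count table. The HOXA10 window shown held 21 CG dinucleotides, HOXD3 25 and HOXB-AS4 5, against a median of 14 over all 35116 promoters in the RefSeq table and 15 over the 36 windows of the members. The letters TATAAA, searched on both strands, were present in the HOXA10 and HOXB-AS4 windows shown and in 16.7% of the members' windows, against 11.5% of all promoters. The further HOXA10 window, with 25 CG, held the letters too, and the further HOXB-AS4 window, with 1 CG, did not. Of the 5 members with a window that held them, HOXA3, HOXA9, HOXA10 and HOXD13 were higher and HOXB-AS4 was lower.

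The paralogs were next compared across clusters. Anterior genes are taken as groups 1 to 3, central genes as groups 4 to 8 and posterior genes as groups 9 to 13. Higher genes made up 42.9% of anterior, 60% of central and 43.75% of posterior genes, against 28.6% of all tested genes. Lower genes made up 28.6%, 6.67% and 31.25% in that order, against 29.0% of all tested genes. Of 7 anterior genes 3 were higher, 2 lower and 2 not called, with a median log2 fold change of 0.20. Of 15 central genes 9 were higher, 1 was lower and 5 were not called, with a median of 0.33. Of 16 posterior genes 7 were higher, 5 lower and 4 not called, with a median of −0.05. The order of these medians, central above anterior above posterior, was the same under each scaling, but the genes within a group spread far more than the medians differed, from −2.40 to 0.50 for anterior, −0.77 to 1.03 for central and −8.15 to 1.22 for posterior genes. Cluster and position were also not independent, since HOXC has no anterior gene and HOXA holds 3 of the 7. Within HOXA the medians were 0.70 for central and 0.63 for posterior genes, and within HOXC 0.21 and −0.09. From anterior to posterior, the HOXB medians were 0.19, 0.75 and 0.32, over 2, 5 and 2 genes. The HOXD medians in that order were −1.74, −0.52 and −0.13, over 2, 2 and 5 genes. The scarce HOXD1 is among the anterior ones, and so few genes cannot show a trend. Joining groups 1 to 8 gave 12 higher and 3 lower of 22, with a median of 0.32.

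Several paralog groups had members moving in opposite directions. In group 10 HOXA10 and HOXC10 were higher and HOXD10 lower, and in group 9 HOXA9, HOXB9 and HOXC9 were higher and HOXD9 lower. Group 3 held a higher HOXA3, a lower HOXD3 and a HOXB3 that was not called. In group 11 HOXA11 rose and HOXC11 fell while HOXD11 was not called. Group 13 had HOXD13 higher, HOXB13 lower and HOXA13 and HOXC13 not called. In group 6 HOXA6, HOXB6 and HOXC6 all rose, by 0.62, 0.75 and 0.33 on the log2 scale, and group 6 has no HOXD gene. For each group from 3 to 10 that has a HOXD gene, that gene had the lowest log2 fold change of its group. This did not hold in groups 11 to 13. HOXD11 (−0.07) lay above HOXC11 (−1.03), HOXD12 (−0.13) lay above HOXC12 (−8.15), and in group 13 the HOXD gene had the highest value.

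**Figure D3:**
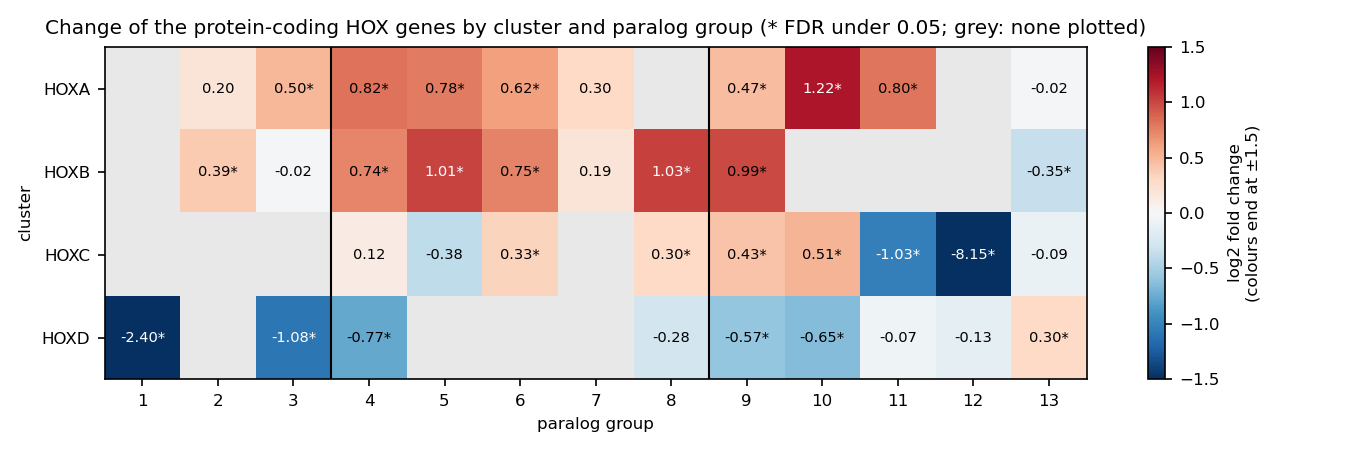
Log2 fold change of ΔTUT4/7 over WT for protein-coding genes by cluster (rows) and paralog group (columns), with red for higher, blue for lower and an asterisk for an adjusted p under 0.05; vertical lines part anterior, central and posterior groups. HOXA and HOXB are mainly red and HOXD mainly blue; the HOXC12 value of −8.15 rests on 1 count in ΔTUT4/7 and depends on the prior count.

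Among the 16 lncRNAs 6 were higher (37.5%), 5 lower (31.25%) and 5 not called. These shares lay near the 28.6% higher and 29.0% lower of all tested genes. The median log2 fold change of the 16 was 0.10, where all tested lncRNAs had a median of −0.29. The lncRNAs form 30 overlapping pairs with coding members, all on opposite strands. Some pairs shared a direction, as HOXA11 with HOXA11-AS, HOXC11 with HOTAIR and HOXD9 with HOXD-AS2. In others only the lncRNA was called, as HOTTIP beside HOXA13 and HOXB-AS4 beside HOXB7. The reverse was seen for HOXA10-AS, which was not called beside a HOXA10 that was 2.32-fold higher. Since strand was not given, agreement within a pair may include reads of the partner, and the size of that share was not tested.

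**Figure D4:**
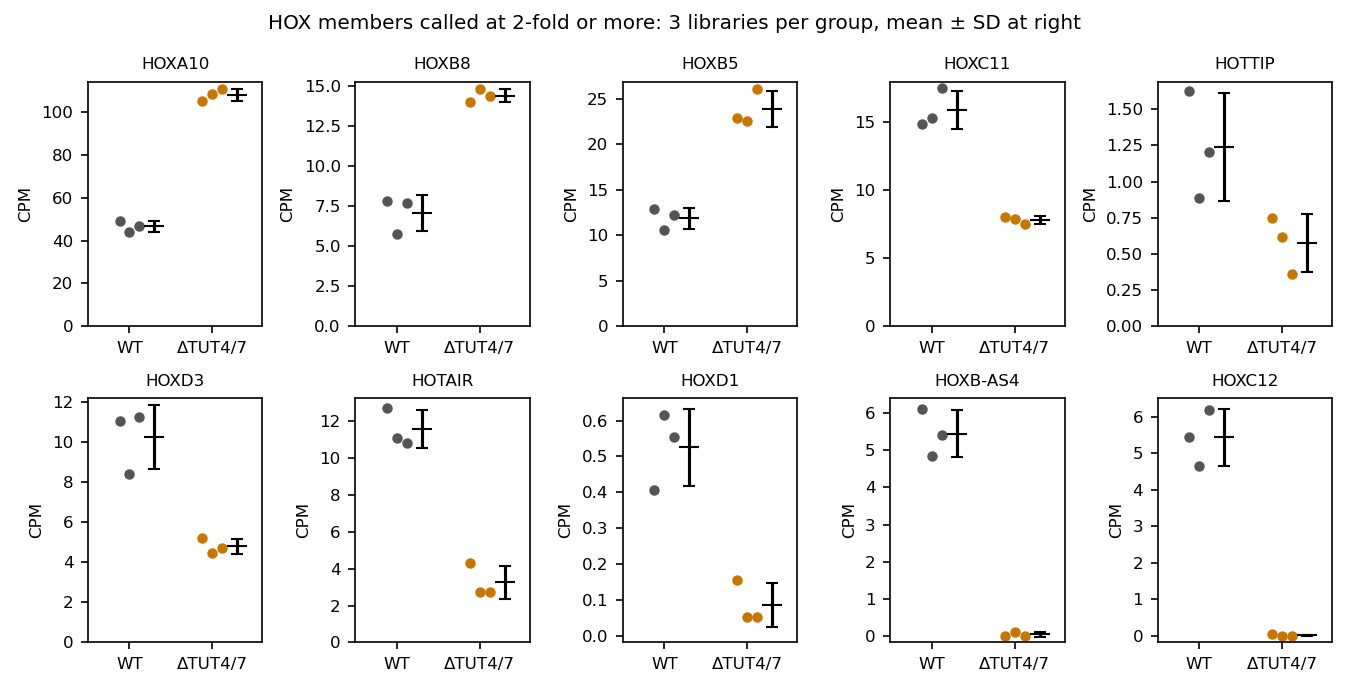
Level in CPM (y axis, from 0) of the 10 members called at 2-fold or more, with a point for each of the 3 WT (grey) and 3 ΔTUT4/7 (orange) libraries and the mean ± SD beside them. No ΔTUT4/7 point overlaps a WT point in any of the panels, and HOXB-AS4 and HOXC12 lie at or near 0 in ΔTUT4/7.

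Levels of different genes can be compared only per length, and CPM was divided by the length of all annotated exons of a gene in kilobases. On this scale HOXD10 led in WT with 35.2 ± 2.90 CPM per kb (mean ± SD, n = 3), followed closely by HOXA5 with 34.0 ± 0.579, values that did not differ beyond their spread. HOXD13 followed with 28.0 ± 1.55 and HOXB9 with 25.0 ± 1.23 CPM per kb. HOXA9 was next with 17.1 ± 0.808. In ΔTUT4/7 the order changed, with HOXA5 first at 58.5 ± 1.39 CPM per kb, then HOXB9 at 49.6 ± 0.913, HOXD13 at 34.5 ± 1.38 and HOXA10 at 29.2 ± 0.761. HOXD10 had moved from rank 1 to rank 6 of the 54 members, at 22.4 ± 0.516 CPM per kb. HOXA9 lay just above it at 23.7 ± 1.12, a difference within the spread. HOXA10 had been at rank 7 in WT, at 12.6 ± 0.699 CPM per kb. The HOXC genes were lower, the first in WT being HOXC4 with 8.19 ± 1.37 CPM per kb. In ΔTUT4/7 HOXC9 with 9.20 ± 0.501 and HOXC4 with 8.95 ± 0.470 came first, a difference within the spread. HOTAIRM1 led the lncRNAs with 13.5 ± 0.595 CPM per kb in WT, and HOTTIP was the last of all members in WT. The values depend on which exons count: over the longest transcript alone, HOXD10 came to 49.1 and HOXA5 to 35.0 CPM per kb in WT, so that they no longer lay close together. In ΔTUT4/7, HOXA10 then came to 42.6 and HOXA9 to 34.8 CPM per kb, ahead of HOXD13 at 34.5, while HOXA5 and HOXB9 stayed in front. On that length HOXC4 came to 14.5 and HOXC9 to 10.2 CPM per kb in ΔTUT4/7. HOTTIP was then no longer last in WT, at 0.371 CPM per kb against 0.330 for HOXC-AS3 and 0.279 for HOXD1.

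**Figure D5:**
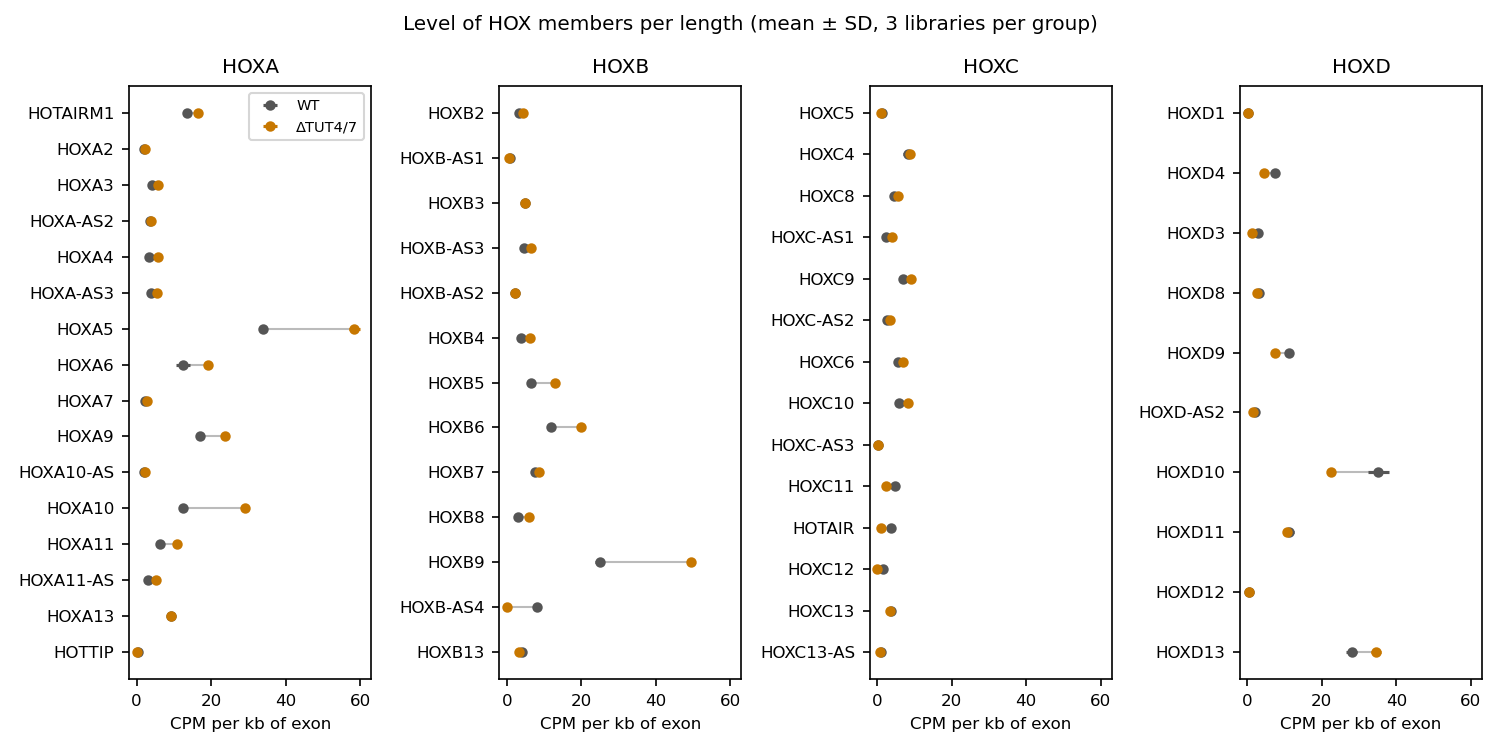
Level of the members in CPM per kb of exon (x axis) in WT (grey) and ΔTUT4/7 (orange), mean ± SD of 3 libraries, in 1 panel per cluster with members ordered along the cluster. HOXA5, HOXB9, HOXA10 and HOXD13 move to higher levels, HOXD10 moves to a lower one, and the HOXC members stay under 10 CPM per kb.

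Position along a chromosome was checked with the genes around each cluster. Within 1 Mb on either side and with a mean count of at least 50, the 9 genes flanking HOXA had a median log2 fold change of 0.02, from −0.25 to 0.31, with 2 higher and 2 lower. The 30 genes flanking HOXB had a median of 0.03, with 9 higher and 12 lower. The 36 genes flanking HOXC had a median of 0.18, with 19 higher and 7 lower, and the 4 genes flanking HOXD a median of −0.19, with 1 higher and 1 lower. Within 500 kb the HOXA and HOXC flank medians changed sign, to −0.10 and −0.012, and the HOXD flank median was −0.38. The flanks of HOXA and HOXB thus stood near the median of all genes, and the cluster medians of 0.47 and 0.39 lay above them. The HOXD median of −0.52 lay below that of its flank, which holds few genes, and was nearer to it within 500 kb. Named by their small p, HNRNPA2B1 (0.31 ± 0.04) and CBX3 (0.23 ± 0.05) lie by HOXA, PHB (0.96 ± 0.05) and CDK5RAP3 (−1.07 ± 0.05) by HOXB, PRR13 (1.47 ± 0.07) and CBX5 (−1.36 ± 0.04) by HOXC, and ATP5MC3 (0.51 ± 0.05) and LNPK (−0.42 ± 0.05) by HOXD.

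Genes that act with or on the HOX clusters were described by count, beside the 57.7% of all tested genes called, 28.6% higher and 29.0% lower. TALE homeobox proteins bind DNA together with HOX proteins, and of 11 such cofactors 5 were higher, 2 lower and 4 not called. MEIS2, which helps HOX proteins select their sites, rose by 0.51 ± 0.06 on the log2 scale. Polycomb repressive complex 2, which methylates histone H3 over silent HOX genes, had 6 of 13 genes higher and 4 lower. The catalytic subunits in this list went opposite ways. EZH2 went from 57.1 ± 1.83 to 115 ± 1.87 CPM (1.01 ± 0.05, adjusted p = 2.27e-13). EZH1 went from 64.9 ± 2.33 to 35.1 ± 2.16 CPM (−0.89 ± 0.06, adjusted p = 4.89e-11). The histone-binding RBBP4 rose by 0.75 ± 0.04. Of 22 genes of Polycomb repressive complex 1, 10 were higher and 7 lower, with PHC2 at 1.08 ± 0.06 and RYBP at −1.58 ± 0.07. Of 21 genes of Trithorax and MLL complexes, 11 were higher and 6 lower, with SETD1B, a histone methyltransferase, at 0.99 ± 0.06 and WDR5, a shared core subunit, at 0.74 ± 0.05.

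Retinoic acid and CDX factors switch HOX genes on in the embryo. Of 14 tested genes of that list 7 were higher and 4 lower. The 2 genes of the list with the smallest p, both for enzymes that make retinoic acid, went opposite ways. ALDH1A2 rose from 26.1 ± 2.39 to 134 ± 2.85 CPM (2.36 ± 0.06, adjusted p = 1.19e-17). ALDH1A3 fell from 12.8 ± 0.238 to 0.199 ± 0.0105 CPM (−5.99 ± 0.20, adjusted p = 6.04e-16). Factors that fold and insulate the clusters had 7 of 10 higher and 2 lower, with CTCF at 0.65 ± 0.05 and the cohesin release factor WAPL at 0.56 ± 0.04. Among 21 tested homeobox genes related to HOX by sequence, 7 were higher and 5 lower, with EN2 at 0.99 ± 0.07 and MSX2 at −1.33 ± 0.07. The medians of the lists ran from 0.05 for Polycomb repressive complex 2 to 0.40 for the folding factors, beside the −0.02 of all tested genes.

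The microRNA seeds shown at the start were searched in the 3′ UTRs of the coding members (GENCODE v44, the transcript with the longest coding sequence). The let-7 site CTACCTC occurred in 4 of 38 members, or 10.5%, and in 10.2% of 14286 genes. The members with it were HOXB4, which was higher, and HOXB13, HOXC11 and HOXD1, which were lower. The miR-196 site ACTACCT occurred in 7 of 38 members, or 18.4%, and in 7.38% of genes, and the letters of the let-7 and miR-196 sites overlap, as they do in HOXB13. Of the members with a miR-196 site HOXA5, HOXA9, HOXB6 and HOXC8 were higher, HOXB13 was lower, and HOXA7 and HOXB7 were not called. The HOXA7 UTR held 4 such sites and HOXC8 held 3.

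HOXB8 is the textbook target of miR-196, through a site that pairs along nearly its whole length. A search of the HOXB8 3′ UTR found it at position 411, with 21 of 22 bases complementary to miR-196a and those bases in capitals. The remaining base, in lower case, lies opposite the seed, so the letters ACTACCT are not in this site.
HOXB8 site: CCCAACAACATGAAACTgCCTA
HOXB8 was 2.04-fold higher in ΔTUT4/7. Over all genes the median log2 fold change was −0.02 both for genes with the let-7 site and for genes with the miR-196 site, against 0.05 for the genes without the site in either case. These matches describe letters in the annotated UTRs, and no microRNA level was measured here.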

How the data were processed

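Total RNA from 3 WT and 3 ΔTUT4/7 HEK 293T samples was depleted of ribosomal RNA and sequenced. The authors aligned reads to hg38 with STAR (version 2.7.3a) and assigned them to Ensembl genes with the expectation-maximisation model of Partek (version 10.0.22), and deposited estimated counts per gene, of which 45.2% to 50.0% of values per library are not whole. A second deposited file holds the authors' own comparison (fold changes and p-values) and was not used. Here the estimated counts were rounded, genes with a largest count above 12 were kept as in the study, and WT and ΔTUT4/7 were compared with edgeR (version 4.0.16, R 4.3.3; TMM scaling, glmQLFit with robust = TRUE, glmQLFTest, no covariate) over all 23952 genes, with Benjamini-Hochberg adjustment. CPM is relative to the TMM-scaled library total. SE is the absolute log2 fold change divided by the square root of F. The biological coefficient of variation was 6.44%.

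Groups came from the genotype label. Values in each library are given for members past 2-fold with at least 100 counts, for the 3 members of each cluster with the highest mean CPM and for HOTAIR, HOTAIRM1 and HOTTIP; HOXA13, HOXB7, HOXB13 and HOXC13 were added after their values were seen. From each list and flank the 2 genes with the smallest p are named, and EZH1 was added after its values were seen. A member and a listed gene enter the counts, medians and sums but are not reported here. The members and lists were chosen with earlier results of these data known. Ratios of near-absent genes carry exact 95% intervals, which cover counting error only, since PCR copies are not independent molecules. Coordinates are those of the gene table, exon lengths and UTRs are from GENCODE v44 (starts matched for 52 of 54 members), and microRNA and promoter sequences from RefSeq. The scripts were tested on simulated counts. Alternatives were other scalings, DESeq2 (version 1.42.0), limma (version 3.58.1), other filters, a replicate block and leaving out each library.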

Additional observations from a re-analysis of the deposited data

How the results depend on the processing

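Of the 25 higher members 21, of the 13 lower 10 and of the 16 not called 12 kept that status in each of the 15 settings in which they were tested, and no member reversed while called. The number at 2-fold or more was 1 higher under library-size scaling, upper-quartile scaling, a mean count of at least 50 and limma on log2(CPM + 1), against 3, and 3 lower under limma on log2(CPM + 1), against 7. Leaving out a library gave 1 to 4 higher and 6 to 7 lower.

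Library-size scaling moved the medians to 0.35 for HOXA, 0.28 for HOXB, −0.10 for HOXC, −0.64 for HOXD, 0.085 for anterior, 0.22 for central and −0.16 for posterior genes, and the log2 ratios of the cluster sums to 0.48, 0.49, −0.13 and −0.36. Upper-quartile scaling moved HOXA to 0.37, HOXC to −0.087, HOXD to −0.62 and posterior genes to −0.15. These shifts are those of all genes (−0.11 and −0.10). With a mean count of at least 50 the HOXC median was 0.15 and the central median over such members 0.47. Protein-coding members alone gave 0.74 for HOXB and 0.12 for HOXC. Anterior genes taken as groups 1 to 8 gave 0.32. Leaving out a library gave −0.62 to −0.43 for HOXD. A window of 500 kb gave flank medians of −0.10, 0.082, −0.012 and −0.38 for HOXA to HOXD, and leaving out a library gave −0.042 to 0.057, −0.047 to 0.080, 0.17 to 0.25 and −0.24 to −0.11. The cause of these moves was not tested. Protein-coding medians and limma on log2(CPM + 1) were added after the data were seen.

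WT and ΔTUT4/7 libraries of the same number did not deviate together (correlations 0.05, −0.01 and −0.02), so the numbers were not taken to pair them. With the replicate block 25 members were higher and 12 lower, and HOXD-AS2 was no longer called (adjusted p = 0.0592). Few counts limit HOXD1, HOTTIP, HOXD12 and the smaller antisense RNAs.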
